A study of Mus musculus with 4 samples.

Results

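The 4 genes described here are T, Eomes, Mixl1 and Evx1, the transcription factors most closely tied to the primitive streak, and they were taken by name from the counts table of each library. They are 4 of 19616 gene names over the 3 single-cell libraries, and all 4 were listed in each library. The study profiled whole mouse embryos during gastrulation by droplet single-cell RNA-seq, with 1 pooled library at each of 3 stages. Every embryo had the genotype TnEGP-CreERT2/+; R26Rtdtomato/R26Rtdtomato and its mother received tamoxifen by gavage (0.08 mg/bw), so no library is untreated. The mid-streak to late-streak library (MS-LS) was dissected at E6+21h, that is day 6 plus 21 hours, after tamoxifen at E6+5h. The no bud to early bud library (OB-EB) was dissected at E7+3h after tamoxifen at E6+21h. The early head fold library (EHF) was dissected at E7+14h after tamoxifen at E7+7h. The driver allele places CreERT2 and a nuclear GFP downstream of the endogenous T gene, so each cell carried 1 modified copy of T. Whether transcripts of that copy were counted as T was not tested, and a level of T may therefore stand for 1 or for both copies.

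T, also called Brachyury, and Eomes encode T-box factors, and Mixl1 and Evx1 encode homeodomain factors. In the gastrula, Nodal and Wnt signals act on the posterior epiblast, where these genes mark the cells that ingress to form mesoderm and endoderm. T stays on in the node, the notochord and the caudal progenitors after the streak stages. Eomes has a separate role in the trophoblast, where it acts with Elf5 and Cdx2 to maintain the stem cell compartment of the extraembryonic ectoderm.

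The genes lie on 4 chromosomes of GRCm38. T spans chr17:8434423-8442496 and Eomes chr9:118478212-118486132, both on the plus strand. Evx1 spans chr6:52313498-52318378 on the plus strand, and Mixl1 spans chr1:180693043-180697034 on the minus strand. The antisense gene Evx1os, chr6:52308389-52314832 on the minus strand, overlaps Evx1 by 1335 bases. The overlap lies at the start of both genes, and the paper notes a poly(A) bias of its library method. Whether counting used the strand is not given in the sources used here, and sharing of reads between that pair of genes was not tested.

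The 250 bases before the start of 3 of the genes (RefSeq, GRCm38.p6, plus strand, 5′ to 3′) are shown as the proximal upstream regions of the genes whose levels are given next. They span chr17:8434173-8434422 for T, chr9:118477939-118478188 for Eomes and chr6:52313248-52313497 for Evx1. The RefSeq start used for Eomes lies before the start of the gene span given above, and positions are counted from the RefSeq starts. Capitals mark every match, on either strand, to 6 motifs, namely the TCF/LEF core CTTTGA, the T-box half-site TCACAC, the SMAD box GTCTAGAC, the FOXH1 motif AATCCACA, CCAAT and TATAAA.
T: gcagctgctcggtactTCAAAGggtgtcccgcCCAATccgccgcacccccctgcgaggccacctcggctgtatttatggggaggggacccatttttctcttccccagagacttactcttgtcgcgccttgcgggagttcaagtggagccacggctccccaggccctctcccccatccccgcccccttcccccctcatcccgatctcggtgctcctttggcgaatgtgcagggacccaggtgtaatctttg
Eomes: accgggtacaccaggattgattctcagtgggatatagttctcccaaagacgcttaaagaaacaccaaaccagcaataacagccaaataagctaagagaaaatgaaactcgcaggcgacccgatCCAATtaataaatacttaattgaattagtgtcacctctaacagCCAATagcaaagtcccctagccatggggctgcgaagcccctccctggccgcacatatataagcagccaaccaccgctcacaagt
Evx1: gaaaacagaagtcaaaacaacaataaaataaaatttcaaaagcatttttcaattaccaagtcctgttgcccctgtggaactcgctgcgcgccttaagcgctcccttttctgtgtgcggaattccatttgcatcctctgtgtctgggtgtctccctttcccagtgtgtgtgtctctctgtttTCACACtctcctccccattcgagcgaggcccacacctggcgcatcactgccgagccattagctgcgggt
The T window held 1 TCF/LEF core on its minus strand, 234 to 229 bases before the start, a motif found in 13.8% of 32851 windows of this length. It also held 1 CCAAT box 218 to 214 bases before the start, and the Eomes window held a pair of them, at 127 to 123 and 84 to 80 bases (33.8% of windows). The Evx1 window held 1 T-box half-site, 69 to 64 bases before the start (12.3% of windows). The T window was rich in G and C, at 62.8%, against 46.4% for Eomes, 49.6% for Evx1 and a median of 52.4% over all windows. No window matched the SMAD box, the FOXH1 motif or TATAAA, which were in 0.167%, 0.718% and 12.4% of windows. Only these exact letters were searched, so a variant such as tatataag near the end of the Eomes window was not counted. A match is a run of letters and was not tested as a binding site.

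The tables held 3635 MS-LS cells, 3994 OB-EB cells and 3494 EHF cells, with 17966956, 12181436 and 20376539 UMIs (molecules counted once each). The median cell had 4251, 2620.5 and 5584 UMIs, so OB-EB was the shallowest. A second EHF table held the same counts as the first in all 65128160 places, though 21 gene names differed. It was counted as the same library, and the names of the first were used. Between 12 and 18 cell barcodes were shared by each pair of libraries. Cells were clustered without the 4 genes and Elf5, and clusters were named by markers that did not include the 4, which left 18.0%, 30.8% and 27.4% of cells unnamed. In each named class but 3, at least 6 markers were over 2-fold above the other cells of the library. The small ectoplacental cone and parietal endoderm classes of MS-LS had 4 of 6. The cluster of 132 EHF cells that scored highest on epiblast markers had 4 of 8, was led by Ptn, Pim2, Cxcl12 and Zic5, and is not treated as epiblast. With 1 library a stage there is no replicate and no test between stages. All intervals are exact 95% intervals that cover counting error only, and embryos, stage and library preparation cannot be told apart. Where no cell had a UMI, the share allowed is instead 3 divided by the number of cells, which is lower than the exact limit.

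T and Eomes ran in opposite directions from MS-LS to OB-EB, Mixl1 was lower at EHF than at both earlier stages, and Evx1 had few UMIs in every library. Levels are in CPM, the UMIs of a gene divided by all UMIs of the group and scaled to a fixed total, and in library sums fewer cells of a type and less RNA per cell cannot be told apart. T, which is needed for mesoderm to leave the streak, was at 39.0 CPM in MS-LS (36.1–41.96; 700 UMIs), 96.5 CPM in OB-EB (91.1–102; 1176 UMIs) and 89.2 CPM in EHF (85.2–93.4; 1818 UMIs). Eomes, which specifies definitive endoderm and cardiac mesoderm in the embryo proper, was at 133 CPM (127–138; 2384 UMIs), 57.5 CPM (53.4–62.0; 701 UMIs) and 14.9 CPM (13.3–16.7; 304 UMIs). The lowest T was therefore found where Eomes was highest. Mixl1, a target of Nodal signalling, was at 41.0 CPM (38.1–44.1), 40.6 CPM (37.1–44.3) and 15.02 CPM (13.4–16.8), with its first pair of intervals overlapping. Evx1, a factor of the posterior streak, was at 6.40 CPM (5.28–7.68), 8.70 CPM (7.12–10.5) and 5.15 CPM (4.21–6.24), from 115, 106 and 105 UMIs.

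The OB-EB level of T was 2.48-fold above that of MS-LS (2.25–2.72), a log2 difference of 1.31. The level of Eomes was 2.31-fold lower (2.12–2.51), a log2 difference of -1.21. Thus 1 of the 4 genes was over 2-fold higher and 1 over 2-fold lower, where 4.15% of 9687 genes with at least 100 UMIs were higher, 3.23% lower and 7.38% either. Mixl1 differed by -0.02 on the log2 scale (-0.18 to 0.15) and Evx1 by 0.44 (0.05–0.84), both inside the 2-fold limit. From OB-EB to EHF none of the 4 was over 2-fold higher and 2 were over 2-fold lower, namely Eomes and Mixl1, against a background of 15.3% higher, 5.48% lower and 20.7% either among 10471 genes. Eomes was 3.86-fold lower (3.37–4.43) and Mixl1 2.70-fold lower (2.34–3.12), while Evx1 differed by -0.76 on the log2 scale (-1.16 to -0.35) and T by -0.11 (-0.22 to -0.01). Both comparisons share the OB-EB library. The median gene differed by 0.37 between EHF and OB-EB, and relative to it the log2 differences were -2.32 for Eomes, -1.80 for Mixl1, -1.13 for Evx1 and -0.48 for T. The sign of the small T difference depended on the cells counted: it was 0.18 (0.08–0.29) without the extraembryonic classes, 0.18 in cells called male from X- and Y-linked transcripts, and 0.19 as a mean over cells. The Mixl1 difference was -1.01 in female-called and -2.44 in male-called cells, and 51.7%, 63.2% and 85.7% of the called cells of the 3 libraries were female.

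The share of cells with a UMI moved with depth as well as with level, so each cell was also thinned to 1500 UMIs, which left out 101, 406 and 165 shallower cells. Eomes was seen in 35.6%, 13.9% and 6.38% of cells before thinning and in 15.8%, 7.64% and 1.41% after it. T was seen in 12.9%, 16.6% and 19.3% of cells before and in 5.07%, 10.3% and 10.2% after. The thinned shares thus gave the same order as the CPM, whereas the raw shares of T placed EHF above OB-EB. Mixl1 was in 5.15%, 5.27% and 2.22% of thinned cells and Evx1 in 1.05%, 1.34% and 0.721%. The richest single cells held 19 UMIs of T and 15 of Mixl1, both at EHF, and 14 of Eomes at MS-LS, whereas no cell of any library held more than 2 of Evx1.

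**Figure D1:**
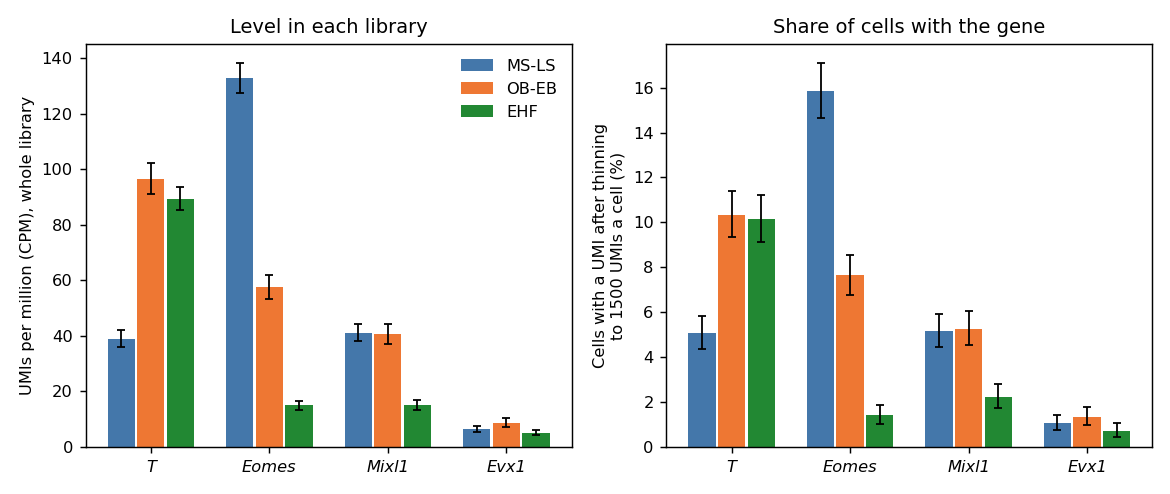
The left panel shows the level of each gene in CPM and the right panel the share of cells with at least 1 UMI after thinning to 1500 UMIs, in order of stage (1 library each; bars, exact 95% intervals for counting error only). Eomes descends from 133 to 14.9 CPM over the stages, while T is lowest at MS-LS (39.0 CPM) and Evx1 stays under 10 CPM.

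By class of cells, T was highest in node and notochord-like cells at OB-EB and EHF, while at MS-LS no single class stood clear at the top. At MS-LS it was at 148 CPM in haematoendothelial-like cells (110–195; 69 cells), 141 CPM in node and notochord-like cells (92.9–205; 57 cells), 100.4 CPM in primitive streak-like cells (86.7–116; 338 cells) and 85.1 CPM in nascent mesoderm-like cells (71.7–100.2; 315 cells). No neighbours among these 4 were separated by the interval of their ratio, but the intervals of the first and the last were apart. The last of them was above definitive endoderm-like cells (51.6 CPM). Epiblast-like cells had 7.26 CPM (4.70–10.7; 713 cells) and visceral endoderm-like cells 2.48 CPM (1.0–5.11; 524 cells), a class taken as the background for T. At OB-EB the order was node and notochord-like (359.8 CPM, 272–467; 59 cells), nascent mesoderm-like (238 CPM, 219–259; 562 cells) and then haematoendothelial-like cells (77.3 CPM, 53.9–108), each above the next beyond its interval. Nascent mesoderm-like cells were 14.1% of the OB-EB cells and held 46.1% of its T UMIs.

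At EHF the peak of T was sharper. All 44 node and notochord-like cells had a UMI of T, and their level was 1308 CPM (1147–1486), 3.64-fold above that of the OB-EB node class. They made up 1.26% of EHF cells and held 12.98% of the T UMIs. Presomitic mesoderm-like cells followed with 394 CPM (361–428; 258 cells), caudal epiblast-like cells with 231 CPM (212–250.2; 389 cells) and definitive endoderm-like cells with 170 CPM (133–213; 75 cells), again each above the next. In the endoderm-like class 30.7% of cells had a UMI of T and 1 cell had 19. Paraxial, cardiac and lateral plate mesoderm-like cells, which lie further along mesoderm differentiation, had 22.5, 19.7 and 14.4 CPM, and erythroid-like cells 1.78 CPM (1 UMI). Counted as cells with a UMI, T was in 34.6% of MS-LS primitive streak-like cells (median 4111 UMIs a cell), 42.5% of OB-EB nascent mesoderm-like cells (3650.5) and 74.0% of EHF presomitic mesoderm-like cells (4883.5). In visceral endoderm-like cells the shares were 1.34%, 3.23% and 3.30%, at medians of 4656.5, 3334 and 6432 UMIs.

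Eomes was spread over more classes than T at MS-LS. It was highest in primitive streak-like cells (266 CPM, 244–290.3) and nascent mesoderm-like cells (241 CPM, 218–266), which were not separated from each other. Extraembryonic ectoderm-like cells followed with 173 CPM (158–189; 525 cells), then lateral plate and extraembryonic mesoderm-like cells with 164 CPM, definitive endoderm-like cells with 148 CPM and node and notochord-like cells with 136 CPM, with no separation between these neighbours. Epiblast-like cells had 56.4 CPM (48.7–64.9) and visceral endoderm-like cells 27.7 CPM (21.9–34.5). Outside the named classes, a cluster of 131 cells with the visceral endoderm marker Ttr at 2058 CPM had Eomes at 119 CPM (89.4–155). At OB-EB the leading classes were node and notochord-like (135 CPM, 83.5–206), nascent mesoderm-like (103 CPM, 90.2–117) and extraembryonic ectoderm-like cells (91.5 CPM, 73.1–113), not separated from one another.

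At EHF the highest level of Eomes was in the trophoblast class, and its node level was not separated from it. Extraembryonic ectoderm-like cells had 65.8 CPM (57.6–74.8; 513 cells) and node and notochord-like cells 44.4 CPM (19.1–87.4; 8 UMIs), and every other named class was at or under 7.15 CPM. Lateral plate and extraembryonic mesoderm-like cells had 0 UMIs in 216 cells, which allows up to 1.39% of cells with a UMI and sets no limit on cells expressing the gene, and this was at least 22.6-fold lower than at OB-EB (43 UMIs). Extraembryonic ectoderm-like cells were 14.4%, 6.11% and 14.7% of the cells of the 3 libraries and held 21.7%, 12.1% and 76.6% of the Eomes UMIs. Without the extraembryonic classes, Eomes stood at 148, 59.4 and 3.82 CPM, so the log2 difference between EHF and OB-EB was -3.96 (-4.39 to -3.55) rather than -1.95.

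Mixl1 was most abundant in nascent mesoderm-like cells while these were named, at 139 CPM in MS-LS (121–158) and 113 CPM in OB-EB (99.7–128). At MS-LS primitive streak-like cells came next with 106 CPM (91.6–121), and definitive endoderm-like cells had 79.8 CPM (61.9–101). At EHF, where no cluster was named nascent mesoderm, presomitic mesoderm-like cells led with 88.5 CPM (73.4–106), above node and notochord-like (38.8 CPM) and caudal epiblast-like cells (33.0 CPM). These leading classes held 31.6%, 52.0% and 39.5% of the Mixl1 UMIs of their libraries. Epiblast-like cells had 5.81 CPM at MS-LS and 8.68 CPM at OB-EB. In EHF definitive endoderm-like cells Mixl1 had 0 UMIs in 75 cells, which allows up to 4% of cells with a UMI. It was at least 5.04-fold lower than in the same class at OB-EB (25 UMIs, or 21 without a cluster led by Spink1 and Dkk1 whose name is uncertain). With that cluster kept in, T was 2.60-fold higher at EHF than at OB-EB in this class (1.78–3.84), and 1 EHF cell held 19 of the 74 UMIs.

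Evx1 was also highest in mesoderm classes, from few UMIs. It reached 18.4 CPM in MS-LS nascent mesoderm-like cells (12.5–26.2; 31 UMIs), 16.2 CPM in lateral plate and extraembryonic mesoderm-like cells (9.75–25.3) and 11.5 CPM in primitive streak-like cells (7.21–17.4), with overlapping intervals. OB-EB nascent mesoderm-like cells had 14.5 CPM (9.99–20.4; 33 UMIs). At EHF it was near 10 CPM in presomitic mesoderm-like (10.2 CPM), caudal epiblast-like (10.1 CPM), definitive endoderm-like (9.18 CPM) and lateral plate-like cells (9.16 CPM), and unnamed clusters held 43.8% of its UMIs. In extraembryonic ectoderm-like cells it had 3, 1 and 1 UMIs in the 3 libraries.

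**Figure D2:**
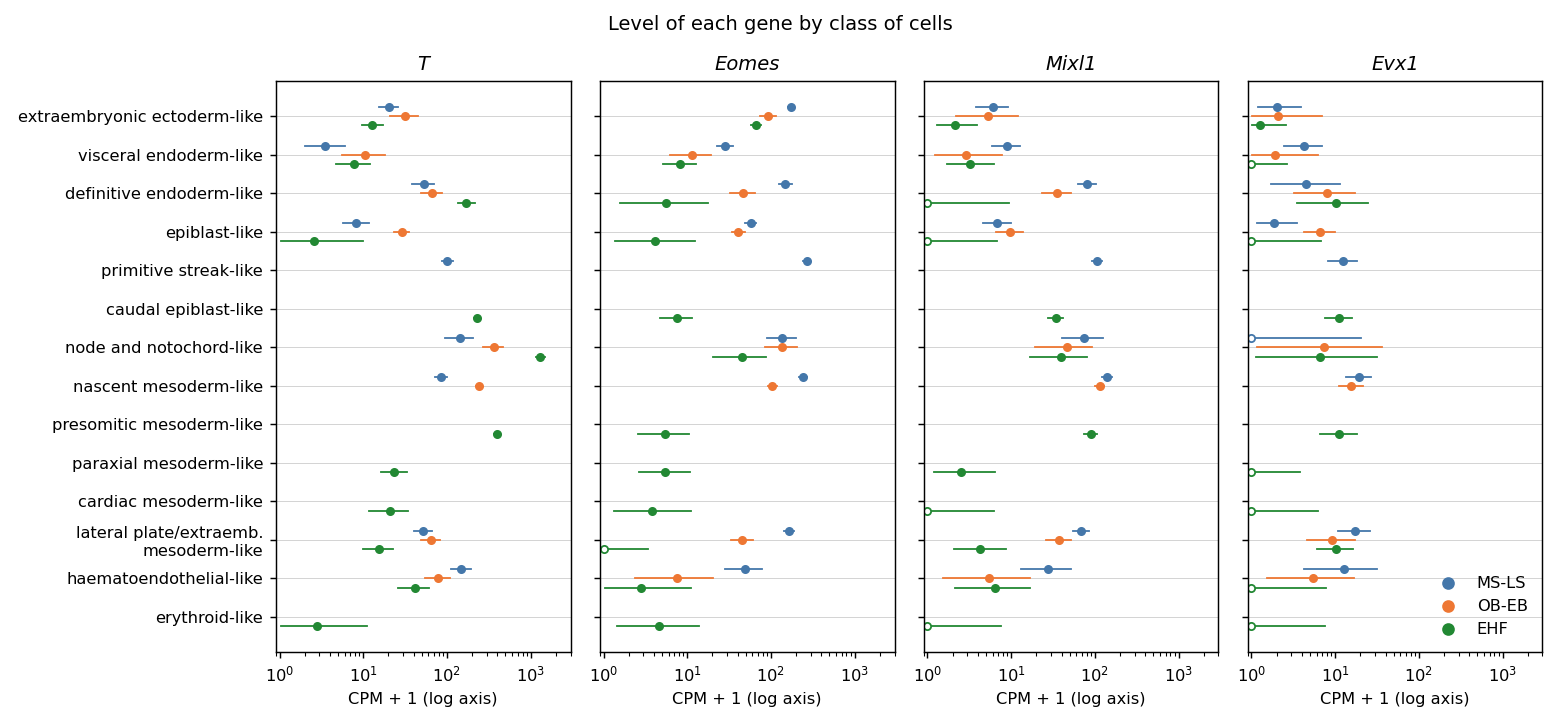
Level of each gene (CPM + 1, log axis) in the named classes of cells other than ectoplacental cone and parietal endoderm, with exact 95% intervals for counting error; colours give the 3 libraries, open points stand for 0 UMIs, and the epiblast row at EHF is the cluster led by Ptn, Pim2 and Cxcl12. T reaches 1308 CPM in EHF node and notochord-like cells, while the highest Eomes level at EHF is 65.8 CPM in extraembryonic ectoderm-like cells.

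Within classes named at both MS-LS and OB-EB, the pattern of the whole libraries was seen in nascent mesoderm-like, epiblast-like and visceral endoderm-like cells, and in part in the others. In nascent mesoderm-like cells the log2 difference was 1.49 for T (1.22–1.76), -1.23 for Eomes (-1.47 to -0.99) and -0.29 for Mixl1 (-0.56 to -0.03). In epiblast-like cells it was 1.93 for T (1.27–2.64; 83 against 25 UMIs) and -0.51 for Eomes (-0.85 to -0.17), and Evx1 went from 3 UMIs to 17. The node and notochord-like class had 1.35 for T (0.66–2.07) and -0.01 for Eomes (-0.91 to 0.88). In haematoendothelial-like cells both were lower, by -0.94 for T (-1.60 to -0.29) and -2.84 for Eomes (-5.26 to -1.03; 3 against 16 UMIs). The interval for T held 0 in definitive endoderm-like (0.34, -0.29 to 0.96), lateral plate and extraembryonic mesoderm-like (0.30, -0.24 to 0.84) and extraembryonic ectoderm-like cells (0.66, -0.05 to 1.34), where Eomes differed by -1.69, -1.89 and -0.92. In visceral endoderm-like cells Eomes differed by -1.42 (-2.48 to -0.50). T, for which this class is the background, differed there by 1.92 (0.38–3.55; 10 against 7 UMIs), close to the value in epiblast-like cells, and what part of the epiblast difference is background was not tested.

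The study's own cell lists place 318 MS-LS cells and 252 OB-EB cells in the primitive streak. Whether T and Eomes were among the genes of the authors' clustering is not given in the sources used here, so the levels are a description. In the lists T was at 103 CPM in MS-LS (90.0–118) and 348 CPM in OB-EB (307–393), a log2 difference of 1.75 (1.49–2.02). Eomes was at 282 CPM (260–306) and 131 CPM (107–160), a log2 difference of -1.10 (-1.43 to -0.79). The later streak cells thus had more T and less Eomes. Mixl1 was at 104 and 137 CPM, a log2 difference of 0.39 (0.04–0.74), and Evx1 at 10.95 and 23.03 CPM (23 and 17 UMIs). Of the 3 genes with 100 UMIs or more, 1 was over 2-fold higher and 1 over 2-fold lower, against 3.43% higher, 5.09% lower and 8.52% either of 3182 genes. The median gene differed by -0.13, and relative to it the differences were 1.88 for T, -0.97 for Eomes, which is then inside the 2-fold limit, and 0.52 for Mixl1. In clusters chosen here after the data were seen, as those scoring highest on streak or caudal epiblast markers (467, 361 and 389 cells), T was at 95.7, 164 and 231 CPM and Eomes at 251, 65.9 and 6.45 CPM. There the OB-EB over MS-LS difference was 0.78 for T, -1.93 for Eomes and -0.88 for Mixl1, so the sign of Mixl1 depended on which cells stood for the streak. Mixl1 was at 33.0 CPM in the EHF cells of this kind. The study also lists 36 MS-LS cells as anterior streak, where Eomes was at 182 CPM (123–259), a log2 difference of -0.63 from the other streak cells (-1.21 to -0.10), while the intervals for T (0.23) and Mixl1 (0.29) held 0.

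A list of 28 other genes of the streak pathway gives the setting. From MS-LS to OB-EB, 22 passed the limit of 100 UMIs, 3 were over 2-fold higher and 4 over 2-fold lower, with a median log2 difference of 0.07 against -0.09 for all genes, of which 4.15% were higher and 3.23% lower. The higher ones were the Wnt effector Lef1 (1.42), the Wnt antagonist Frzb (1.04) and the mesoderm factor Tbx6 (1.43), and the lower ones were the ligand Nodal (-2.0), the Wnt antagonist Dkk1 (-1.47) and the anterior streak factors Foxa2 (-1.25) and Gsc (-1.39). The lower ones thus had the sign of Eomes and the higher ones that of T, which follows from T and Eomes having opposite signs. From OB-EB to EHF, 25 passed, 7 were higher and 7 lower, with a median of -0.19 against 0.37, where 15.3% of all genes were higher and 5.48% lower. The caudal factors Cdx1 (6.19), Cdx2 (2.82), Cdx4 (5.35) and Nkx1-2 (4.71), the ligands Wnt3a (1.58) and Bmp4 (1.04) and Tbx6 (1.95) were higher. The Nodal co-receptor Tdgf1 (-5.92), the Nodal inhibitor Lefty2 (-4.47), Lhx1 (-3.64), Gsc (-3.42), Mesp1 (-2.36), Wnt3 (-1.83) and Fgf8 (-1.38) were lower. In the study's streak cells 12 passed, where 3.43% of all genes were higher and 5.09% lower, and of the 12 Frzb (1.53), Mesp1 (1.30) and Lef1 (1.13) were higher and Foxa2 (-2.91), Gata6 (-1.83) and Gsc (-1.55) lower.

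Co-detection was counted after thinning to 1500 UMIs, and the number of cells with both genes was set against the product of the 2 shares. At MS-LS 51 cells had T and Eomes where the product gave 28.4, a ratio of 1.80, and at OB-EB 48 cells had both where it gave 28.3, a ratio of 1.69. At EHF 3 cells had both where it gave 4.77, a count too small to place the pair above or below its product. T and Mixl1 met in 20 cells against 9.22 at MS-LS, 65 against 19.5 at OB-EB and 37 against 7.51 at EHF. These are ratios of 2.17, 3.33 and 4.92. Eomes and Mixl1 were together in 57, 23 and 1 cells, with ratios of 1.98, 1.59 and 0.96.

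Put as shares, T was found in 11.0% of Mixl1-positive MS-LS cells (6.84–16.5%), 34.4% at OB-EB (27.7–41.6%) and 50% at EHF (38.1–61.9%). In Mixl1-negative cells the share with T was 4.74%, 9.0% and 9.25%. Of Eomes-positive cells, 9.11%, 17.5% and 6.38% had T, against 4.30%, 9.75% and 10.2% of Eomes-negative cells. Evx1 met T in 6, 11 and 7 cells where the products were 1.87, 4.96 and 2.44, and met Eomes in 10, 5 and 0 cells. These ratios mix cell types, and they were smaller within one. In the study's streak cells the ratio for T and Eomes was 0.94 at MS-LS (16 cells) and 0.87 at OB-EB (12 cells), and that for T and Mixl1 0.94 (6 cells) and 1.10 (18 cells). Inside the named classes the ratio for T and Mixl1 was 1.09 in MS-LS nascent mesoderm-like cells (7 cells), 2.04 in those of OB-EB (35 cells), 1.22 in EHF presomitic mesoderm-like cells (16 cells) and 2.61 in EHF caudal epiblast-like cells (14 cells).

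Without thinning, 54.8%, 69.8% and 73.0% of cells had none of the 4 genes, and 16, 3 and 1 cells had all 4. Eomes alone was the commonest pattern at MS-LS (807 cells), and T alone at OB-EB (349 cells) and EHF (464 cells). T with Eomes and Mixl1 was seen in 117, 68 and 5 cells, T with Mixl1 and no Eomes in 36, 99 and 118 cells, and Eomes with Mixl1 and no T in 171, 29 and 1 cells. Mixl1 was therefore most often seen with Eomes at MS-LS and with T at EHF, at depths that differed between libraries.

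**Figure D3:**
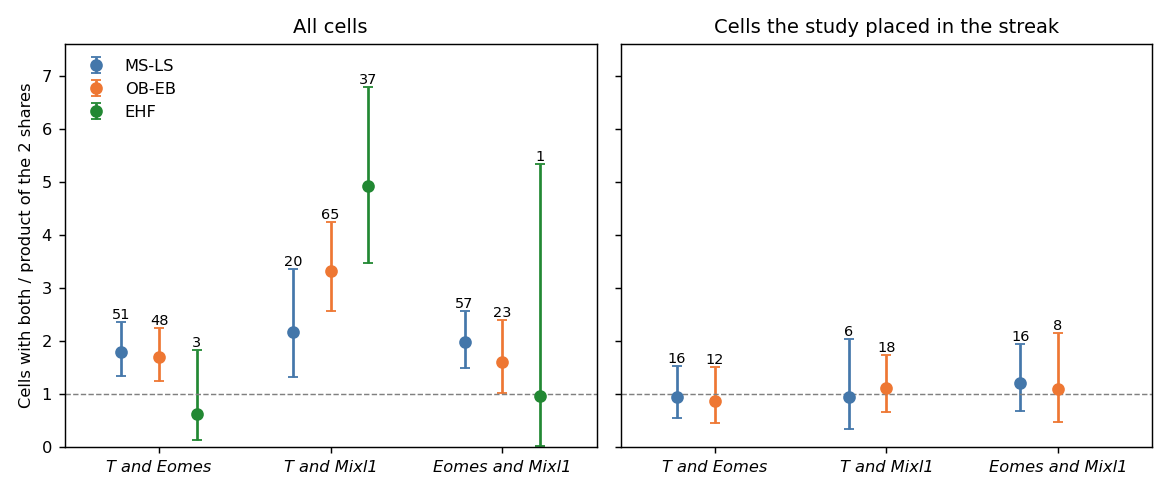
Cells with both genes of a pair divided by the product of the 2 shares (y axis; dashed line at 1), after thinning to 1500 UMIs, in all cells and in the cells that the study placed in the streak at MS-LS and OB-EB; numbers are the cells with both, bars the exact 95% Poisson interval of that count. In all cells T and Mixl1 go from 2.17 to 4.92 over the stages, and in the streak cells every ratio lies between 0.87 and 1.2.

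The recombined reporter was sparse at the first stages, with like shares in T-positive and T-negative cells. In thinned cells a WPRE-tdTomato UMI was in 0.559% of T-positive and 0.715% of T-negative MS-LS cells, and in 1.62% and 1.59% at OB-EB. At EHF it was in 11.2% of T-positive cells (8.08–15.1%) and 3.54% of T-negative cells (2.91–4.27%). Of Mixl1-positive EHF cells 13.5% had it (6.68–23.5%), against 4.12% of Mixl1-negative cells (3.46–4.86%). It was in 0 of 47 Eomes-positive EHF cells, which allows a share of up to 6.38%. The share in Eomes-negative cells, 4.39% (3.71–5.15%), lies under that limit, so no difference is read. Of the 47 cells, 37 were extraembryonic ectoderm-like. The hours between tamoxifen and dissection differ between the libraries, so these shares cannot be read as a difference between stages.

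Eomes in the trophoblast was read against Elf5, a factor of the extraembryonic ectoderm that is also 1 of the 8 markers naming that class. Elf5 was at 37.7, 12.1 and 33.1 CPM in the libraries and had a UMI in 383, 104 and 337 cells. Elf5-positive cells had Eomes at 184 CPM in MS-LS (168–202), 98.5 CPM in OB-EB (72.4–131) and 73.5 CPM in EHF (63.3–84.9). Elf5-negative cells had 125 CPM (119–130.2), 55.9 CPM (51.7–60.3) and 6.66 CPM (5.52–7.97). Both kinds of cell carried Eomes at the streak stages, and the gap between them was widest at EHF. Of cells with Eomes, 16.7% had Elf5 at MS-LS, 5.23% at OB-EB and 54.3% at EHF, and after thinning 4.64%, 1.46% and 12.8%. In OB-EB the Elf5-positive cells called male had Eomes at 165 CPM (101–256; 18 cells) and those called female at 61.6 CPM (28.2–117; 34 cells), with overlapping intervals.

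The other 3 genes were also counted in the Elf5-positive cells. T was at 23.5, 46.1 and 18.3 CPM, Mixl1 at 16.6, 12.6 and 1.19 CPM and Evx1 at 1.62, 0 and 0.79 CPM. Across the class T was at 19.0, 30.1 and 11.9 CPM, and with the highest 5% of Scrublet doublet scores left out at 14.3 CPM (10.1–19.6), 23.7 CPM (14.5–36.5) and 7.58 CPM (4.95–11.1). Eomes in the class was at 175, 94.6 and 65.9 CPM with those cells left out, close to its values with them. The visceral endoderm-like cells of the same libraries had T at 2.48, 9.39 and 6.71 CPM, and the part of free RNA or mixed droplets in these levels was not tested.

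Within the extraembryonic ectoderm-like class, Eomes was at 185 CPM in Elf5-positive and 141 CPM in Elf5-negative cells of MS-LS, at 104 and 80.3 CPM in OB-EB and at 79.9 and 39.9 CPM in EHF. Before thinning, 57.4% of Elf5-positive cells of the MS-LS class had Eomes against 39.6% of its Elf5-negative cells, and the pairs were 29.2% and 20.3% at OB-EB and 38.5% and 17.6% at EHF. After thinning to 1500 UMIs they were 19.5% and 18.9%, 8.89% and 12.2%, and 5.31% and 8.09%, with overlapping intervals at each stage. The later thinned shares ran against the CPM, so no order is read from them. Across whole libraries the thinned shares were 18.7% and 15.7%, 8.16% and 7.63%, and 4.92% and 1.28%. The excess at EHF (1.83–10.4% against 0.92–1.73%) was the 1 pair whose intervals were apart.

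Eomes in the class as a whole was lower at each later stage, in sums over clusters that differed in Eomes. The log2 difference was -0.92 from MS-LS to OB-EB (-1.27 to -0.59) and -0.48 from OB-EB to EHF (-0.84 to -0.10), where the median gene of the class differed by 0.30 and Eomes relative to it by -0.78. Eomes was the 1 gene of the 4 to pass 100 UMIs in this class and was not over 2-fold in either comparison. In the first, 2.80% of 4078 genes were over 2-fold higher, 2.28% lower and 5.08% either, and in the second 13.0%, 4.48% and 17.4% of 4753. A list of 11 trophoblast stem cell genes had a median of -0.34 in the first comparison (8 passed, 0 over 2-fold) and 0.27 in the second (9 passed). In the second, Ascl2, a factor of ectoplacental cone differentiation, was 3.03 higher on the log2 scale, Cdx2 was 1.03 higher and Sox2 was lower by -1.44.

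The EHF class was divided into clusters with graded Eomes. A cluster of 148 cells had Eomes at 142 CPM (121–166), Elf5 at 256 CPM, Sox2 at 148 CPM, Bmp4 at 140.1 CPM and Esrrb at 46.7 CPM. Its Eomes was above that of the whole OB-EB class (91.5 CPM, 73.1–113), so the lower level of the EHF class was not shared by this cluster. What part the mix of clusters has in the class difference was not tested. A cluster of 156 cells had Eomes at 54.0 CPM (40.9–69.9) with Elf5 at 224 CPM, Sox2 at 40.7 CPM, Bmp4 at 16.1 CPM and Ascl2 at 139 CPM. A cluster of 176 cells had Eomes at 11.7 CPM (6.53–19.2) with Elf5 at 84.0 CPM, Sox2 at 9.33 CPM, Bmp4 at 4.66 CPM and Ascl2 at 194 CPM. Eomes, Sox2, Bmp4 and Esrrb thus shared their order over these 3 clusters and Ascl2 had the opposite one, whereas Elf5 in the middle cluster stayed near that of the first. The other trophoblast stem cell genes of the list were divided. Tead4 and Ets2 had the order of Eomes. Cdx2 (117, 136 and 84.7 CPM) and Fgfr2 (77.5, 89.0 and 30.3 CPM) were highest in the middle cluster. Tfap2c (97.8, 96.6 and 169 CPM) and Gata3 (14.1, 15.1 and 26.4 CPM) were highest in the cluster of 176 cells. Another cluster, of 33 shallow cells (median 1557 UMIs), had 0 UMIs of Eomes, Elf5 at 109 CPM and Ascl2 at 203 CPM. Clusters were set by genes such as these, so the order is a description. At MS-LS 2 clusters had Elf5 at 222 and 216 CPM but Eomes at 116 CPM (97.7–138; 293 cells) and 217 CPM (195–241; 210 cells), and the second was the deeper, with a median of 7017.5 UMIs a cell against 3998. Another cluster, of 22 cells, had Eomes at 149.98 CPM and Elf5 at 109.99 CPM. The OB-EB class was 1 cluster with Eomes at 91.5 CPM. The 12 ectoplacental cone-like cells of MS-LS had 0 UMIs of all 4 genes, which allows up to 25% of cells with a UMI.

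**Figure D4:**
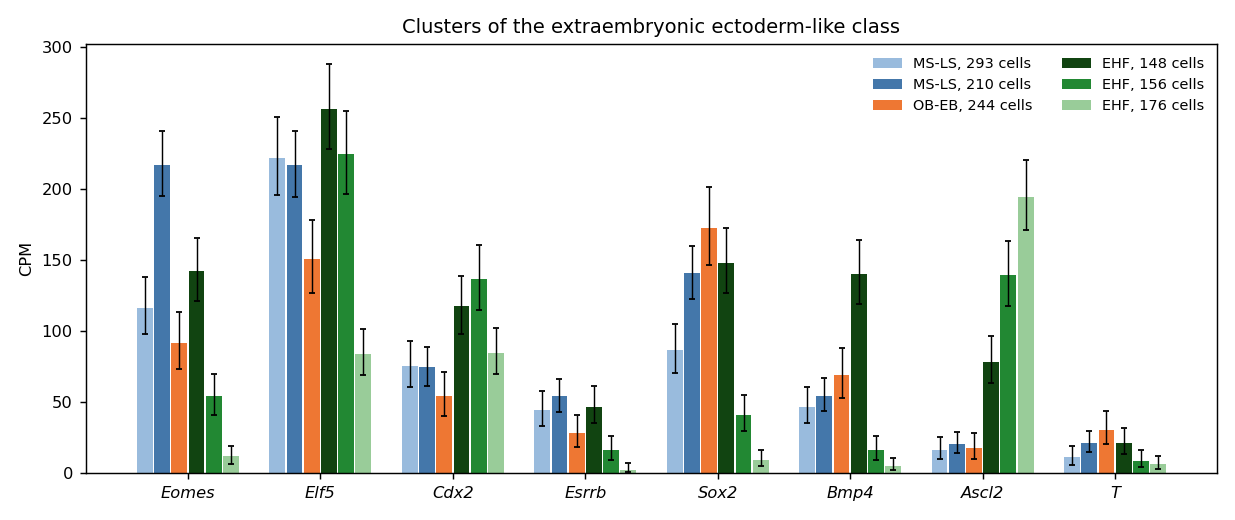
Level (CPM, linear axis from 0) of Eomes, Elf5, other trophoblast genes and T in 6 clusters of the extraembryonic ectoderm-like class, with exact 95% intervals for counting error; colours give library and cluster. In the 3 larger EHF clusters Eomes goes from 142 to 54.0 to 11.7 CPM while Ascl2 goes from 78.4 to 139 to 194 CPM.

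Over the presomitic and caudal clusters of EHF, T and Mixl1 had a similar order. The presomitic cluster led by Tbx6, Hes7 and Fgf4 (119 cells) had T at 589.9 CPM (533–651) and Mixl1 at 143 CPM (116–174), and the presomitic cluster with Aldh1a2 and Meox1 (139 cells) had T at 203 CPM (171–240) and Mixl1 at 36.0 CPM (23.3–53.2). A caudal epiblast-like cluster with Hes7 and Etv4 (82 cells) had T at 598 CPM (537–664), Mixl1 at 97.7 CPM (74.0–127) and Evx1 at 25.7 CPM (14.4–42.4). A caudal epiblast-like cluster led by Nkx1-2 (154 cells) had T at 248 CPM and Mixl1 at 29.0 CPM, and one led by Hes3 with Gbx2 (153 cells) had T at 23.5 CPM and Mixl1 at 1.81 CPM. The node cluster stood apart from these 5, with T at 1308 CPM and Mixl1 at 38.8 CPM. The highest Evx1 level of EHF was in an unnamed cluster of 152 cells led by Mesp1, Cdx4, Evx1os and Hoxd9, with 33.0 CPM (22.4–46.8; 31 UMIs), T at 212 CPM and Mixl1 at 60.6 CPM. That cluster had 0 UMIs of Eomes, which allows up to 1.97% of cells with a UMI.

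Several endoderm clusters, noted after their values were seen, held a few UMIs of Mixl1, Evx1 and Eomes and at most 3 of T. A visceral endoderm-like MS-LS cluster with Afp, Ttr and Amot (143 cells) had 30 UMIs of Eomes, 13 of Mixl1, 7 of Evx1 and 2 of T. An unnamed MS-LS cluster led by Dkk1, Fzd5 and Kitl (131 cells) had 54, 12, 7 and 3. That is Eomes at 119 CPM (89.4–155), Mixl1 at 26.4 CPM (13.7–46.2) and T at 6.61 CPM (1.36–19.3). A streak-like MS-LS cluster of 217 cells had 157 UMIs of Eomes, 61 of Mixl1, 8 of Evx1 and 61 of T, so the ratio of Mixl1 to T differed between these clusters. An OB-EB cluster of 47 cells led by Spink1, Dkk1 and Amot had 7, 4, 2 and 0. Its markers scored highest for definitive endoderm but none of them was among its leading genes, and it had Ttr at 3927 CPM, a marker of the visceral endoderm, so its name is uncertain. Without it the definitive endoderm-like class of OB-EB had T at 79.8 CPM (58.6–106), Eomes at 44.1 CPM and Mixl1 at 35.6 CPM. The other visceral endoderm-like clusters had at most 7 UMIs of Mixl1 and 1 of Evx1. In the clusters of 143, 131 and 47 cells the intervals of T and Mixl1 overlapped, and 3, 7 and 0 cells had both Mixl1 and Eomes. An unnamed MS-LS cluster of 23 cells led by Ifitm3, a gene of germ cell precursors among other cells, had T at 195 CPM (101–341; 12 UMIs) and Evx1 at 48.8 CPM (3 UMIs).

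The genes whose levels ran most like those of the members were ranked by Pearson's r of log2(CPM + 10) over 30 points, each 1 class of 30 or more cells in 1 library, among 11048 genes. For T they were Sp5, a Wnt-responsive factor (0.85), Spata6 (0.83), Dab1 (0.76), Rgs17 (0.76) and Slc5a3 (0.76), and all 5 had their highest level with T in EHF node and notochord-like cells, Sp5 at 261 CPM. For Mixl1 they were Ypel3 (0.84), Tdgf1 (0.80), Lhx1 (0.79), Pitpnc1 (0.76) and Il17rd (0.76). For Evx1 the first was its antisense neighbour Evx1os (0.86), then Syndig1l (0.78), Cdkn2aip (0.73), Rftn1 (0.73) and Mesp1 (0.71). Sharing of reads between Evx1 and Evx1os was not tested. For Eomes they were Rpa3 (0.87), Ndufa7 (0.83), Tdgf1 (0.83), Gm12254 (0.82) and Platr3 (0.82). Of these, Rpa3 stood at 335, 198 and 122 CPM in the whole libraries and Ndufa7 at 1145, 1044 and 595 CPM, so they shared the order of the libraries with Eomes. Among the members r was 0.70 for Evx1 and Mixl1, 0.67 for Mixl1 and T, 0.66 for Eomes and Mixl1, 0.60 for Evx1 and T, 0.37 for Eomes and Evx1 and 0.30 for Eomes and T, and Elf5 had 0.31 with Eomes. The points share libraries and depths, so these are descriptions.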

How the data were processed

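The authors made the deposited UMI counts per gene and cell with Cell Ranger 3.0.2 on GRCm38 with added reporter sequence, and kept cells by gene, UMI and mitochondrial limits; Seurat 3 in R 3.6.1 was their later tool. Here the counts were summed over cells and divided by the group's total UMIs. Clusters came from Seurat 5.3.0 in R 4.3.3 at resolution 4.5, with the 4 genes, Elf5 and the reporter held out. A cluster was named where at least 3 markers were detected and its score led by 0.2. Co-detection used cells thinned to 1500 UMIs. Intervals are exact Poisson and binomial 95% intervals (scipy 1.17.1), and a count of 0 in one group was set to a floor of 3 UMIs over the group. The share of cells allowed by a count of 0 is 3 divided by the number of cells and is not an exact limit. Doublet scores came from scanpy 1.11.5; its threshold marked 6, 0 and 13 cells and so did not work, and no cell was removed. Cells were called female or male from X- and Y-linked transcripts.

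Genes named were the 4, Elf5, the reporter, both lists and the 5 most similar genes to each member; leading genes of clusters were added after their values were seen. The genes and lists were chosen with earlier results of these data known. Of the planned classes, no OB-EB cluster could be named primitive streak, so the study's cell lists were used in its place, beside clusters chosen after the data were seen. The upstream sequence of Mixl1 was not used here. Ratios and thinning were checked on simulated counts.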

Additional observations from a re-analysis of the deposited data

How the results depend on the processing

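Of 379 values under alternatives for 67 results, 307 stayed within the counting interval or limit of the reported value, 68 moved beyond it and 4 changed sign; the cause was not tested. The T difference between EHF and OB-EB (-0.11) became 0.18 in male-called cells, 0.19 as a mean over cells and 0.18 without extraembryonic classes, and -0.44 in female-called cells. The OB-EB over MS-LS streak difference in Mixl1 (0.39) became -0.88 in streak-scoring clusters, added after seeing the data, and 0.020 at resolution 8.

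Sex calls moved library levels: T to 33.3 at MS-LS (female) and 121 or 82.2 CPM at OB-EB (female or male), Eomes to 71.6 and 18.6 CPM at OB-EB and EHF (male), Mixl1 to 36.9 (MS-LS, male), 32.6 or 50.3 (OB-EB, female or male) and 9.31 CPM (EHF, male), and Evx1 to 7.08 and 6.37 CPM (OB-EB and EHF, male). The OB-EB over MS-LS differences became 1.86 (female) or 1.16 (male) for T, -0.90 (male) for Eomes and -0.39 or 0.45 for Mixl1; the EHF over OB-EB ones -1.01 or -2.44 for Mixl1 and -0.15 (male) for Evx1. Means over cells gave T 88.4 and 100.9 CPM (OB-EB, EHF), Eomes 118, 53.1 and 12.3 CPM, Mixl1 37.8, 36.8 and 17.7 CPM and an EHF over OB-EB Mixl1 difference of -1.06. Without extraembryonic classes the differences were 1.08 for T and -0.28 for Mixl1 (OB-EB over MS-LS) and -3.96 for Eomes and -1.17 for Mixl1 (EHF over OB-EB).

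For classes, means over cells gave Eomes 155 (extraembryonic ectoderm) and 229 CPM (streak) at MS-LS and T 1552 CPM in the EHF node, which was 1759 CPM without the highest Scrublet scores. Resolution 8 gave extraembryonic ectoderm Eomes 116 and 99.3 CPM (OB-EB, EHF). Resolution 2 gave nascent mesoderm Mixl1 111 and 78.6 CPM (MS-LS, OB-EB; 84.2 CPM with no gene held out at OB-EB), Evx1 20.8 CPM (OB-EB) and presomitic Mixl1 139.7 CPM; it named no streak cells at MS-LS or OB-EB. The streak difference was 1.31, 2.16 and 0.78 for T at resolution 8, with no gene held out and in streak-scoring clusters, and -1.84 and -1.93 for Eomes at the first and the last. In streak-scoring clusters co-detection ratios were 0.996 (T and Eomes, MS-LS), 0.89, 1.95 and 2.61 (T and Mixl1, by stage) and 1.25 (Eomes and Mixl1, MS-LS); the EHF ratio of Eomes and Mixl1 was 0 at 2500 UMIs and with a second seed. Settings whose product was under 1 cell gave no ratio. Eomes in Elf5-positive cells became 204 (male) and 164 CPM (mean over cells) at MS-LS, 141 (2 Elf5 UMIs), 61.6 (female) and 165 CPM (male) at OB-EB and 93.0 CPM (male) at EHF. With a pseudocount of 1, of the 5 most similar genes 2, 2 and 3 were kept for T, Eomes and Evx1.

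No paired analysis was possible because each stage is 1 library with no replicate. Counting limits Evx1 most, with 105 to 115 UMIs a library, and OB-EB was the shallowest library.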
